A study of Mus musculus with 2 samples.

Results

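Among cells of mouse heart valves at postnatal day 30 (P30), 401 cells carried transcripts of Areg, Ereg, Bdnf or Tnfaip6 together with matrix genes of valve interstitial cells, the fibroblast-like cells that fill the valve leaflets. They were chosen by their measured counts: at least 1% of a cell's unique molecular identifiers (UMIs, each standing for 1 captured transcript) came from Col1a1, Col1a2, Col3a1 and Dcn summed, at least 2 UMIs came from Areg, Ereg, Bdnf and Tnfaip6 summed, and at most 1 UMI came from Rgs5 and Coch summed. The 401 cells were 14.1% (95% Clopper-Pearson interval 12.8 to 15.4%) of the 2846 P30 cells that met the matrix share, here called matrix cells, and 11.4% of all 3512 P30 cells. The other 2445 matrix cells served as comparison. Both the P30 library and a second library from P7 were made by Drop-seq, a droplet assay that reads transcript 3' ends, from aortic and mitral valves of C57BL/6J mice, with no treatment or transgene given in the labels. With 1 library per age there was no replicate, no test was made, and every interval below covers counting error only. Because the values that chose the cells are of the same cells, all differences from other cells are descriptions.

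The name given to these cells, Areg Ereg interstitial cells, did not match what most of them carried. Tnfaip6 was detected in 365 of the 401 cells and gave 76.8% of the UMIs of the 4 choosing genes, while Areg was detected in 40 cells, Ereg in 68 and Bdnf in 77. Neither Areg nor Ereg was detected in 304 cells (75.8%), and both were detected in 11. They are therefore called Tnfaip6-led matrix cells here, and no cell type name is given to them. Of 10 interstitial markers examined, 4 are the matrix genes of the rule. The other 6 were all detected and summed to 20626.5 UMIs per 1000000 UMIs (CPM) against 20552 in the other matrix cells, with Lum at 1956 CPM against 1764 CPM and Pdgfra at 73.5 CPM against 67.0 CPM.

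Areg and Ereg encode amphiregulin and epiregulin, membrane-bound growth factors of the EGF family that are shed by proteases and activate the EGF receptor on the same or on neighbouring cells. Tnfaip6 encodes TSG-6, a secreted protein that binds hyaluronan and is induced by inflammatory cytokines, and Bdnf encodes a neurotrophin whose receptor is TrkB. All are genes that respond to stimulation in fibroblasts, and valve interstitial cells are the cells that make and remodel the leaflet matrix.

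Areg and Ereg are neighbours on chromosome 5 (mm10, GENCODE M21), Ereg at chr5:91074622-91093646 and Areg at chr5:91139599-91148432, both on the + strand and 46.0 kb apart. The chemokine genes Cxcl1 and Cxcl2, whose levels are given below, lie on the same chromosome at chr5:90891241-90893115 and chr5:90903871-90905938. Tnfaip6 lies at chr2:52038009-52056686 and Bdnf at chr2:109674700-109727007. The windows printed next end just before the GENCODE start of each gene (RefSeq promoters, build GRCm38.p6, 5′ to 3′). They belong to genes of the choosing rule or near the top of the list of genes higher in the chosen cells. Only windows that hold a match are printed, and Bdnf windows are not printed. The promoters of Gas6, also among the higher genes, and of Timp1, Tnc, Wif1, Chad, Ptgs2 and C3 were examined and held no match. A Tnfaip3 promoter, not printed, held matches. No promoter entry was available for Ereg or Ccl7. Capitals mark matches, on either strand, to the cAMP response element TGACGTCA, the AP-1 site TGANTCA or the NF-kB site.
Areg, chr5:91139449-91139598, + strand: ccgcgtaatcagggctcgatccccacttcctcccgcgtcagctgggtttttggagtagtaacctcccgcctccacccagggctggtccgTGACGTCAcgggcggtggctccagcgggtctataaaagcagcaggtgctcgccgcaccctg
Tnfaip6, chr2:52037963-52038008, + strand: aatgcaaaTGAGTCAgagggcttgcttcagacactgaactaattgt
Cxcl1, chr5:90891095-90891240, + strand: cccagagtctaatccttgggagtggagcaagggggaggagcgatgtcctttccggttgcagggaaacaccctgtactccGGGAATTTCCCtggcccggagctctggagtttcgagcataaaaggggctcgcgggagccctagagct
Cxcl2, chr5:90903749-90903870, + strand: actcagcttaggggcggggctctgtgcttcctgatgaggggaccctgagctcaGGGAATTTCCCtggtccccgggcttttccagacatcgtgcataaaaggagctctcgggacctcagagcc
Mmp3, chr9:7445672-7445821, + strand: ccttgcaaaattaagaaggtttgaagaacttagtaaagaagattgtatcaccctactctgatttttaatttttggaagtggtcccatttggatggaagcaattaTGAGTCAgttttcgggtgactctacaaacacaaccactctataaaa

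Distances are counted from the RefSeq start, which for Tnfaip6, Cxcl1 and Cxcl2 lies downstream of the end of the printed window. The Areg window held 1 cAMP response element, 61 bases before the start. Of 32851 RefSeq promoters, 1.55% held that element in the 250 bases before the start. The Tnfaip6 and Mmp3 windows each held 1 AP-1 match, 142 and 46 bases before the RefSeq start, and 6.75% of promoters held one. Cxcl1 and Cxcl2 each held 2 overlapping NF-kB matches, the first 71 and 97 bases before the RefSeq start, and 7.25% of promoters held one. The 7 Bdnf promoters held no cAMP response element in these bases. Bdnf promoter 2 held 1 AP-1 match, 152 bases before the start, and Bdnf promoter 5 held 1 NF-kB match, 229 bases before it. A match describes letters only and says nothing of binding in these cells.

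At P30 the library held 11267724 UMIs and at P7 3116184 UMIs in 961 cells, with medians of 2440.5 and 2215 UMIs per cell, and no barcode was shared between the libraries. The chosen cells were deeper than their comparison, with medians of 3368 and 2425 UMIs, and the rule itself asks for a fixed number of UMIs whatever the depth. The non-coding RNA Malat1 took 3.71% of UMIs in the chosen cells and 4.01% in the other matrix cells, and mitochondrial protein-coding genes took 1.34% and 1.59%. Endothelial, macrophage, mesothelial and lymphocyte markers were low in the chosen cells, whereas mural markers and haemoglobin genes were above the other matrix cells. Endothelial markers summed to 44.4 CPM (9 of 10 detected, Cldn5 at 0) against 80.7 CPM. Macrophage markers summed to 77.9 CPM against 162 CPM. Of the 10 listed, 9 were among the P30 gene symbols and 8 were detected, with Fcgr3 at 0. Adgre1 had no UMI in any P30 cell. Only 4 of 7 listed mesothelial markers were among the P30 symbols, and all 4 were at 0. Lymphocyte markers summed to 0.634 CPM, with 1 detected of the 8 among the P30 symbols. Mural markers other than Rgs5, which the rule limits, summed to 684 CPM against 514 CPM, and haemoglobin genes with Alas2 to 4013 CPM against 2850 CPM. The part these differences have in the results was not tested.

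Most chosen cells carried few UMIs of the choosing genes. Exactly 2 such UMIs were counted in 154 cells, 3 to 4 in 126, 5 to 9 in 95 and 10 or more in 26, with a maximum of 35. One of the 4 genes alone was detected in 273 cells, a pair of them in 108 and 3 or 4 of them in 20. Tnfaip6 stood alone in 248 cells, whereas Areg stood alone in 9, Ereg in 8 and Bdnf in 8. A further 100 matrix cells had at least 2 such UMIs and were left out by the limit on Rgs5 and Coch.

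**Figure D1:**
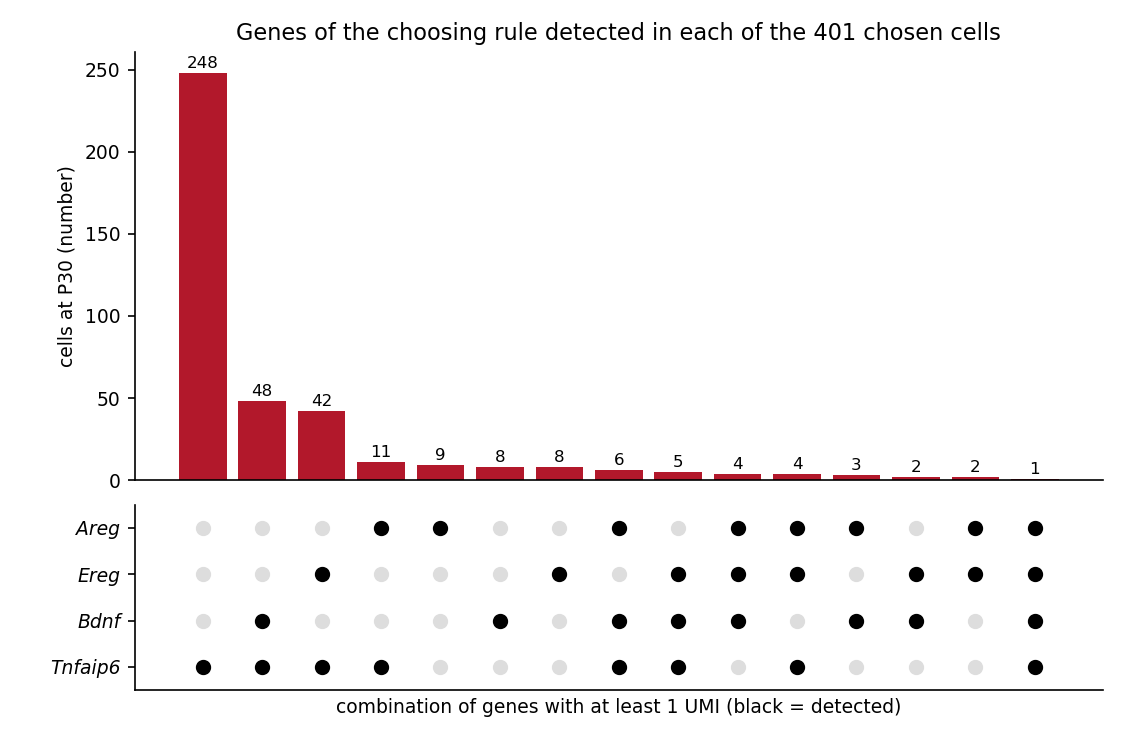
Bars give the number of chosen P30 cells (vertical axis) for each combination of Areg, Ereg, Bdnf and Tnfaip6 with at least 1 UMI, shown by black dots below. The bar for Tnfaip6 alone holds 248 of 401 cells, and the next bars, with Bdnf or Ereg added to Tnfaip6, hold 48 and 42.

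The level of Tnfaip6 was 835 CPM in the chosen cells and 124 CPM in the other matrix cells, values that the choice sets. Areg stood at 84.3 and 11.1 CPM, Ereg at 85.5 and 9.34 CPM, and Bdnf at 82.4 and 9.49 CPM. In cells under the matrix share that carried 5 or more UMIs of endothelial markers (153 cells, median 5085 UMIs), Tnfaip6 was detected in 3.92% of cells and Bdnf in 2.61%, whereas 13.1% had Areg and 17.0% had Ereg. In cells with 5 or more UMIs of macrophage markers (249 cells, median 2276 UMIs) the shares were 2.41% for Tnfaip6, 0.803% for Bdnf and 2.41% for Areg, and Ereg was at 0. The shares in the chosen cells were 91.0% for Tnfaip6, 19.2% for Bdnf, 9.98% for Areg and 17.0% for Ereg, and after thinning every cell to 1000 UMIs they were 58.2%, 7.86%, 5.36% and 7.73%. Thinned in the same way, 3.52% of the endothelial-marker cells had Areg and 3.36% had Ereg. The chosen cells held 59.1% of all P30 Tnfaip6 UMIs, 60.5% of Bdnf, 45.5% of Ereg and only 28.2% of Areg.

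Each of the 4 genes was also measured in cells grouped by the other 3, over matrix cells with at most 1 UMI of Rgs5 and Coch. Areg was at 54.9 CPM in the 381 cells with at least 2 UMIs of Ereg, Bdnf and Tnfaip6 and at 11.3 CPM in the 1595 cells with none, a log2 ratio of 2.28 (interval 1.74 to 2.84). Bdnf gave 48.0 against 9.99 CPM (log2 2.27, 1.69 to 2.86) and Ereg 48.7 against 13.9 CPM (log2 1.81, 1.28 to 2.34) in the same way. Tnfaip6 was at 528 CPM in the 90 cells with at least 2 UMIs of the other 3 and at 218 CPM in the 2160 cells with none (log2 1.28, 1.05 to 1.5). The 4 genes were put together in the rule with these data known, so these values are a description and no independent evidence that the genes go together. Cells with 1 UMI of the other 3 are in neither group. For Areg the groups had medians of 3374 and 2212 UMIs. By single genes, Bdnf was at 150 CPM in the 51 cells with Areg and at 18.4 CPM in the 2325 without it (log2 3.03, 2.42 to 3.59), while Tnfaip6 differed little by Areg, at 317 and 245 CPM (log2 0.38, 0.01 to 0.72). Ereg by Areg gave a log2 ratio of 2.25 (1.55 to 2.89) and Bdnf by Ereg 1.51 (0.80 to 2.15). Tnfaip6 gave 0.94 (0.71 to 1.17) by Ereg and 1.31 (1.11 to 1.51) by Bdnf. Cells with a choosing gene are deeper, and the part of depth in these ratios was not tested.

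Beyond the choosing genes, the Tnfaip6-led cells were marked by chemokines, complement and a matrix protease. Of 3275 genes measured (at least 50 CPM and 20 UMIs in the higher group, the 10 genes of the rule left out), 44 (1.34%) were higher in the chosen cells by 2-fold or more and 18 (0.55%) lower by as much. The median log2 ratio over all measured genes was 0.03. Against only those 1975 other matrix cells that also had at most 1 UMI of Rgs5 and Coch, 53 of 3279 genes (1.62%) were higher and 22 (0.671%) lower, with 37 of the 44 higher genes shared. When every cell was thinned to 1000 UMIs 64 genes were higher and 40 lower, so that 61.5% of called genes were higher in place of 71.0%, and with comparison cells weighted to the same depths 34 were higher and 22 lower (60.7%). Of the 44 higher and 18 lower genes, 30 and 14 were shared after thinning, and 31 and 17 with that weighting.

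Chemokines, the secreted proteins that attract leukocytes, had the highest median of the lists with at least 3 measured genes. Of 8 measured of 19 listed, 5 were at least 2-fold higher and none lower, with a median log2 ratio of 1.46. Cxcl1, a neutrophil attractant, was at 1903 CPM (1835 to 1972) in the chosen cells and 607 CPM (588 to 625) in the other matrix cells, a log2 ratio of 1.65 (1.58 to 1.72). Cxcl1 was detected in 61.8% of chosen and 33.2% of other cells, or 48.2% and 22.9% after thinning. In the endothelial-marker cells the shares were 30.1% before and 9.0% after thinning. The macrophage-marker cells had Cxcl1 in 48.2% before and 38.2% after thinning, at 995 CPM, above the other matrix cells.
Its relative Cxcl2 was at 446 against 87.3 CPM (log2 2.35, 2.19 to 2.51) and was carried by 22.9% and 7.57% of cells. Cxcl2 was far higher, at 6948 CPM, in those macrophage-marker cells. The monocyte attractants Ccl7 and Ccl2 were at 120 against 26.9 CPM (log2 2.16, 1.86 to 2.46) and 167 against 69.2 CPM (log2 1.27, 1.05 to 1.49). Cxcl5, also a neutrophil attractant, was at 57.7 against 8.03 CPM and was carried by 8.48% of chosen cells. Cxcl12, made by many resting fibroblasts, was at 156 against 111 CPM (log2 0.49) and was not among them.

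NF-kB feedback genes and targets had a median log2 ratio of 0.68 over 9 measured of 16 listed. At least 2-fold higher were Tnfaip3, which encodes the NF-kB inhibitor A20, at 100.1 against 40.7 CPM (log2 1.3, 1.01 to 1.58), and the adhesion molecule Icam1, at 150 against 71.8 CPM (log2 1.06). Against comparison cells with few Rgs5 and Coch UMIs, Icam1 was at 0.97 (log2) and 3 of the 9 were 2-fold higher (Nfkb1, Tnfaip3 and Vcam1). Nfkbia, the gene of the inhibitor IkB-alpha, was at 2786 against 2050 CPM (log2 0.44) and was detected in 94.0% of chosen cells. Interferon response genes had 1 of 14 measured at least 2-fold higher (Ifit3, log2 1.01), with a median of 0.36, and 3 against the comparison with few Rgs5 and Coch UMIs (Gbp3, Ifit3 and Isg15). Among prostaglandin genes 1 of 4 measured was 2-fold higher, Ptgs2 (cyclooxygenase-2), at 236 against 102 CPM (log2 1.21, 1.03 to 1.40), while the prostacyclin synthase gene Ptgis was at 403 against 457 CPM. Il6 did not reach the level asked for, at 28.5 against 6.57 CPM.

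Complement genes had 3 of 7 measured at least 2-fold higher (C1ra, C3 and C4b), with a median of 0.72. C1ra fell short of 2-fold against comparison cells with few Rgs5 and Coch UMIs (log2 0.90). C4b was at 331 against 121 CPM (log2 1.45, 1.28 to 1.61) and its near-identical copy C4a at 157 against 53.6 CPM (log2 1.55), and reads of these copies may have been assigned to either. C3, the central complement component, was at 75.4 against 19.3 CPM (log2 1.97, 1.60 to 2.34) in 9.98% of cells. A list of genes of immune-type interstitial fibroblasts, which contains C3, C4b, Cxcl1 and Mmp3, had those 4 of 9 measured genes higher and a median of 0.92. That list was drawn up with these libraries known and is no independent evidence.

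Matrix remodelling genes differed in part. Mmp3, the protease stromelysin-1, was at 978 CPM (930 to 1028) against 318 CPM (log2 1.62, 1.53 to 1.72) and was detected in 30.9% against 15.1% of cells. Timp1, an inhibitor of such proteases, was at 333 against 163 CPM (log2 1.03), and Serpine2, an inhibitor of plasminogen activators and thrombin, at 304 against 151 CPM. These were the 3 of 16 measured protease and plasminogen genes at least 2-fold higher. Of 12 measured collagens outside the fibrillar group, 5 were higher (Col14a1, Col15a1, Col4a1, Col4a2 and Col8a1) and 1 lower (Col8a2), of which Col15a1 fell short of 2-fold against the comparison with few Rgs5 and Coch UMIs (log2 0.90). Col14a1 stood at 213 against 88.9 CPM (log2 1.26, 1.06 to 1.46).

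Other genes higher by the rule for named genes had varied roles. Gas6, a ligand of the TAM receptor kinases, was at 1076 CPM against 457 CPM (log2 1.24, 1.15 to 1.32). The sodium channel gene Scn7a was at 112 against 38.1 CPM (log2 1.56), Hk2 (hexokinase 2) at 73.5 against 25.8 CPM (log2 1.51), and Figf (vascular endothelial growth factor D) at 80.5 against 29.0 CPM (log2 1.47). Srpx, Ahsg and Kcne4 completed the named group, with log2 ratios of 1.58, 1.3 and 1.37. They encode a sushi-repeat protein, fetuin-A and a potassium channel subunit.

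**Figure D2:**
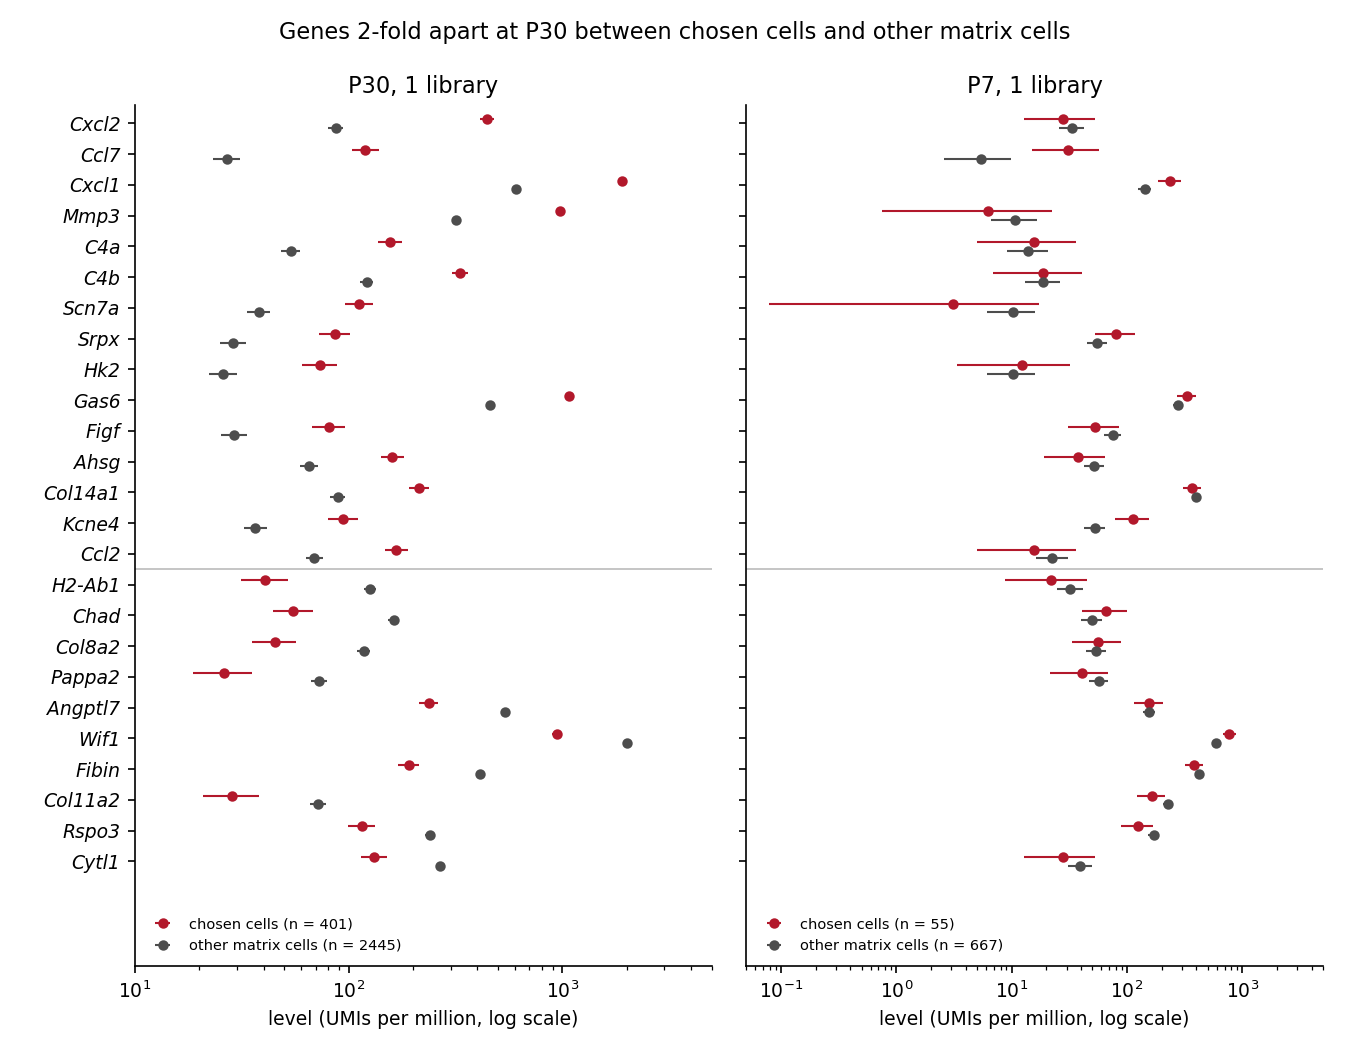
Levels in CPM (horizontal, log scale) of the 15 higher and 10 lower named genes in chosen cells (red) and other matrix cells (grey) at P30 (left) and P7 (right), bars giving 95% Poisson intervals. At P30 the pairs do not overlap, while at P7 most do, apart from Cxcl1, Ccl7, Kcne4 and Wif1, which are higher in the chosen cells.

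Some genes of cartilage- and tendon-like interstitial cells, and a pair of Wnt genes, were lower. Of 10 measured genes of the first list, 4 were at least 2-fold lower (Bglap, Bglap2, Chad and Cytl1) and none higher, with a median of -0.96. Against comparison cells with few Rgs5 and Coch UMIs 7 of 11 measured were, with Cilp, Cilp2 and Fmod added. This list too was drawn up with these libraries known and is no independent evidence. Chad, a cartilage matrix protein, was at 55.1 against 162 CPM (log2 -1.56, -1.89 to -1.24) and was detected in 7.23% against 13.1% of cells. Cytl1 was at 132 against 269 CPM (log2 -1.03), and the near-identical Bglap and Bglap2 were each carried by 2.99% of chosen cells. Fmod (fibromodulin) and Cilp were less than 2-fold apart, with log2 ratios of -0.88 and -0.97, and Mgp, an inhibitor of calcification, was nearly equal at 15768 and 15938 CPM.
Wif1, a secreted Wnt inhibitor, was at 942 against 2017 CPM (log2 -1.10, -1.18 to -1.02), and Rspo3, which enhances Wnt signalling, at 115 against 240 CPM (log2 -1.06). These were the 2 of 7 measured Wnt genes at least 2-fold lower. The 7 had a median of -0.42 and ran up to 0.28 for Sfrp1, a secreted Wnt antagonist, and without the filter on low counts the median was 0.01. Against comparison cells with few Rgs5 and Coch UMIs, Wif1, Rspo3 and H2-Ab1 fell short of 2-fold, so that 0 of 7 Wnt genes passed. The collagens Col8a2 and Col11a2 had log2 ratios of -1.39 and -1.33, Angptl7 -1.18, Pappa2 -1.49 and Fibin -1.10. H2-Ab1, an antigen-presentation gene of dendritic cells and macrophages, was at 40.6 against 126 CPM (log2 -1.63). The dendritic cell list summed to 95.1 CPM in the chosen and 336 CPM in the other matrix cells, and its 4 measured genes were Cd74, H2-Aa, H2-Ab1 and H2-Eb1. At least 3 UMIs of the list were held by 7.24% of the other matrix cells, and as many macrophage-marker UMIs by 0.859%. Whether these cells are dendritic cells was not tested.

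Few genes in the pathways of the choosing ligands differed, and several lay close to the 2-fold limit. No EGF receptor gene was measured at 50 CPM, and Egfr stood at 38.0 against 22.3 CPM. Hbegf, the other EGF family ligand that was measured, was at 493 CPM in the other matrix cells and had a log2 ratio of 0.02 (-0.09 to 0.13). Of 6 measured feedback and target genes of EGF receptor signalling none was 2-fold apart, whereas Errfi1 and Phlda1 were at least 2-fold higher against comparison cells with few Rgs5 and Coch UMIs (log2 1.15 and 1.08). Errfi1, a feedback inhibitor of the receptor, was the nearest, at 132 against 66.5 CPM (log2 0.99, 0.74 to 1.23), while the ERK phosphatase gene Dusp6 was at 90.0 against 126 CPM (log2 -0.49). The TrkB gene Ntrk2 was at 15.8 and 14.3 CPM.
Of 7 measured hyaluronan genes none was 2-fold higher and 1 was lower, the link protein gene Hapln1 (log2 -1.23). Ptx3, whose product joins TSG-6 in hyaluronan matrices, was at 518 against 276 CPM (log2 0.91, 0.79 to 1.03), and passed 2-fold against the comparison with few Rgs5 and Coch UMIs (log2 1.13). The hyaluronan synthase Has2 was at 53.9 against 37.8 CPM, with 89.4 CPM in the 90 chosen cells that carried at least 2 UMIs of Areg, Ereg and Bdnf, where Ptx3 was at 575 CPM. The receptor Cd44 was at 196 against 182 CPM.

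Immediate early genes, which rise within minutes of stress and also during cell dissociation, were not higher in the chosen cells. None of 23 measured was 2-fold apart, their median was -0.01, and Fos was at 3079 against 3744 CPM (log2 -0.28). Heat shock genes had a median of 0.05 over 9 measured, with none apart. Among 11 measured cAMP response genes only Nr4a3 was 2-fold higher, at 174 against 80.0 CPM (log2 1.12, 0.91 to 1.34). Nuclear genes of oxidative phosphorylation had none of 20 apart. Cell cycle genes had 3 of 9 measured higher (Mki67, Stmn1 and Top2a), carried by 2.74%, 5.99% and 3.74% of chosen cells.

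**Figure D3:**
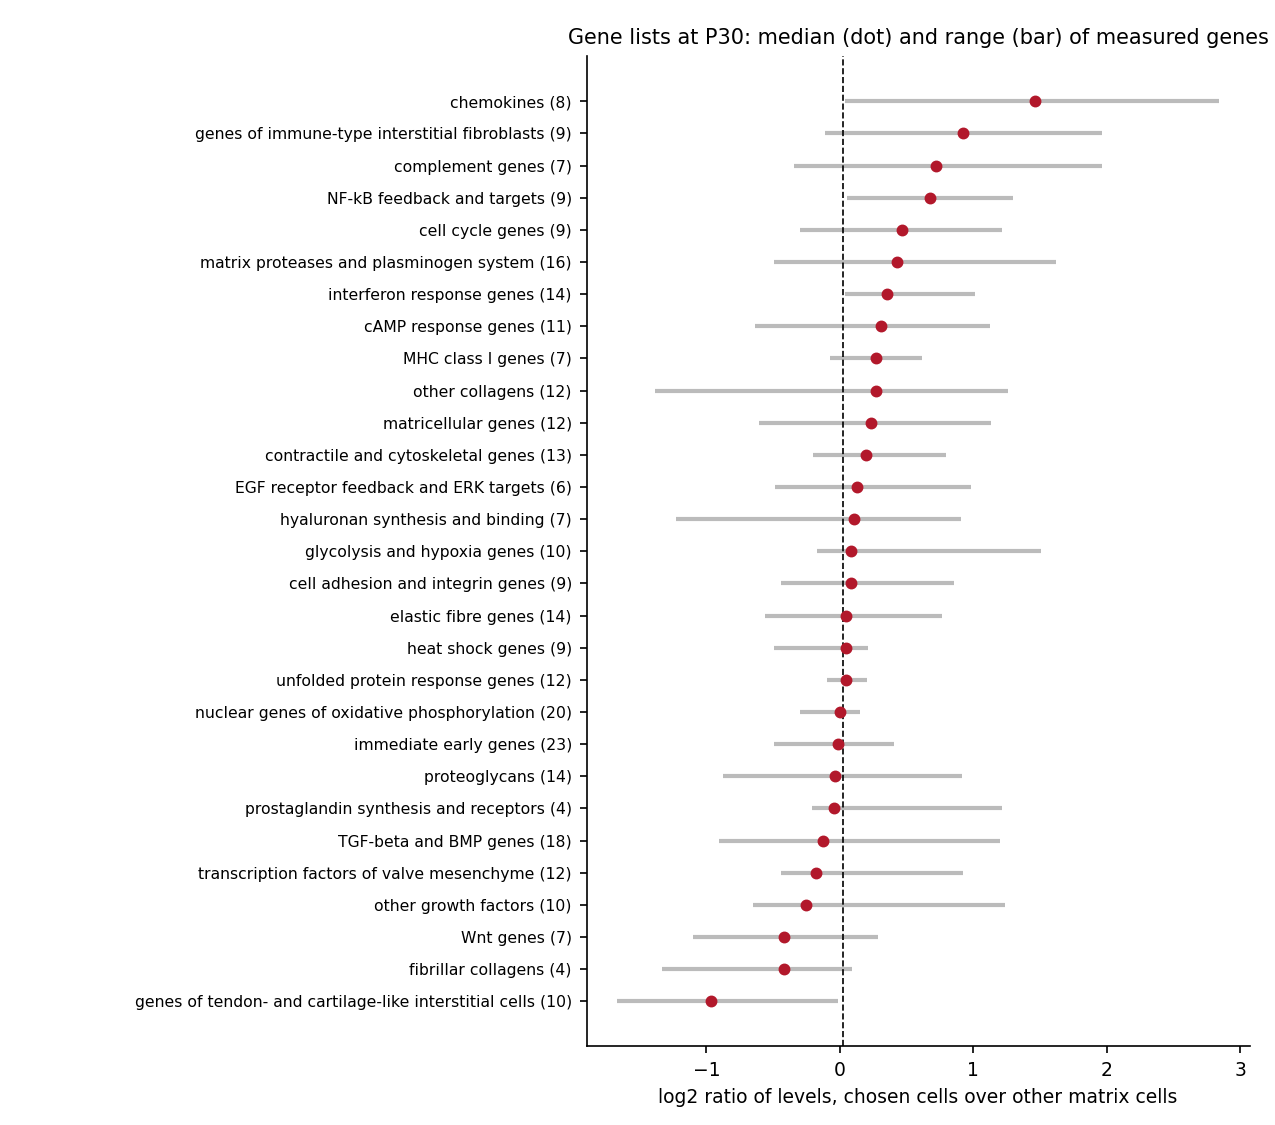
Each row is a gene list with at least 3 measured genes (their number in brackets). Dots give the median and bars the lowest to highest log2 ratio of chosen over other matrix cells at P30, and the dashed line is the median of all measured genes, 0.03. Chemokines stand at the top with 1.46 and genes of tendon- and cartilage-like cells at the bottom with -0.96. The lists were chosen with earlier results of these data known.

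At P30 the levels of several genes went with the number of choosing UMIs in a cell, also just outside the rule. Over matrix cells with at most 1 UMI of Rgs5 and Coch, Cxcl1 was at 556 CPM in the 1575 cells with none, 680 CPM in the 400 cells with 1, 1063 CPM in the 154 cells with 2, 1807 CPM in the 126 cells with 3 to 4 and 2721 CPM in the 121 cells with 5 or more. Mmp3 gave 313, 462, 731, 754 and 1365 CPM in the same order and Gas6 464, 585, 661, 807 and 1646 CPM. In the opposite direction, Prg4, which encodes the surface lubricant lubricin, went from 7264 through 6768, 5920 and 3058 to 2021 CPM. Chad went from 223 through 173, 88.3 and 55.9 to 25.1 CPM, and Wif1 from 1769 in cells with none to 515 CPM in those with 5 or more. Cells with 1 choosing UMI, just outside the rule, lay between those with none and those with 2 for Cxcl1, Mmp3, Gas6, Prg4 and Chad, whereas Cxcl2 was at 148 CPM with 1 and 139 CPM with 2. Wif1 was at 1769 CPM with none, 1774 CPM with 1 and 1495 CPM with 2, and Ptx3 at 217, 303 and 289 CPM. With 2, 3 to 4 and 5 or more, C3 was at 52.6, 35.8 and 125 CPM and Timp1 at 252, 391 and 361 CPM. At P7 Cxcl1 was at 164, 145, 115, 200 and 680 CPM from none to 5 or more, the last in 10 cells. Median depth at P30 went along, from 2207 UMIs in cells with none to 2658.5, 2956, 3017.5 and 4196 UMIs.

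**Figure D4:**
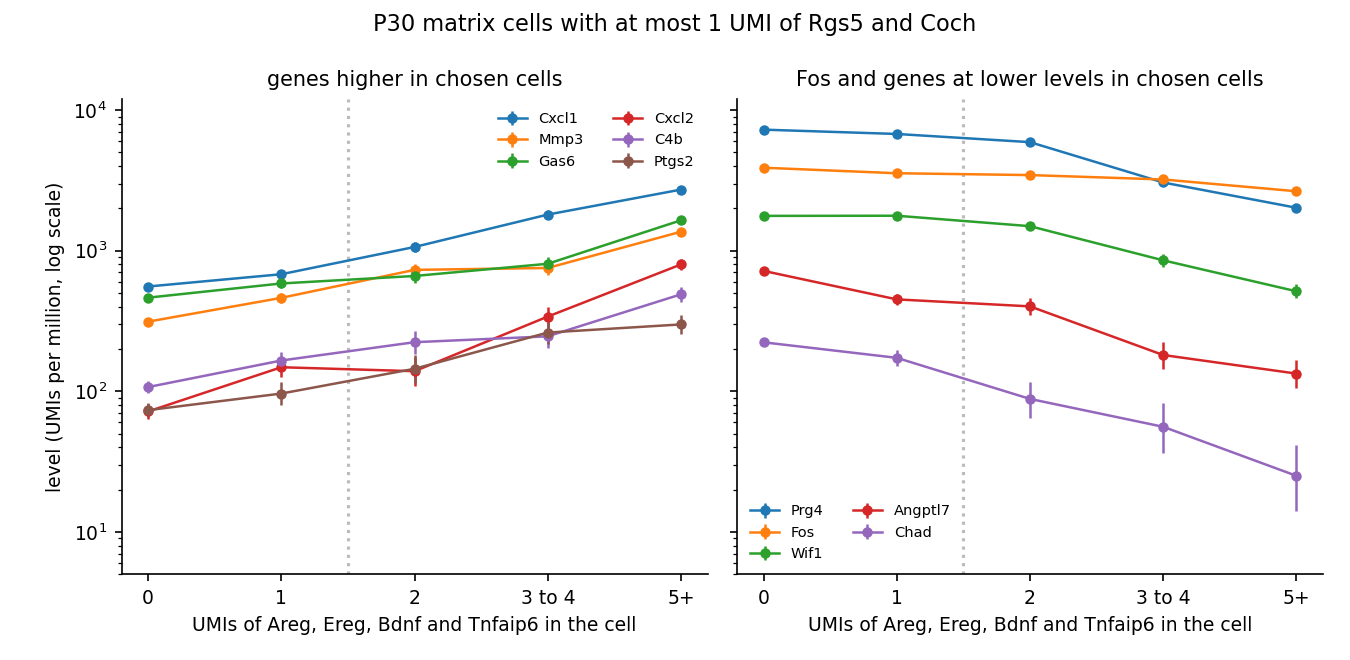
Levels in CPM (vertical, log scale) of genes at higher (left) and lower (right) levels in chosen cells, by the number of choosing UMIs per cell, with 95% Poisson bars. The dotted line is the limit of the rule, and most levels run on across it, for Cxcl1 from 556 to 2721. Cxcl2 was at 148 with 1 UMI and 139 with 2, and Wif1 at 1769 with none and 1774 with 1.

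Cells that carried Areg, Ereg or Bdnf differed from those with Tnfaip6 alone. The 90 ligand-carrying cells (at least 2 UMIs of Areg, Ereg and Bdnf summed, median 3424.5 UMIs) and the 248 cells with Tnfaip6 as their only choosing gene (median 3146 UMIs) were split after the data were seen. Of 3344 measured genes, 94 (2.81%) had at least double the level in the ligand-carrying cells and 79 (2.36%) lower. Weighting each cell equally gave 82 higher and 91 lower, and thinning to 1000 UMIs, with 1528 genes measured and a median over all of them of -0.17 (log2) in place of 0.05, 22 and 129. The balance of directions changed under both. Of the 94 higher and 79 lower genes, 47 and 45 were shared with equal weighting, and 13 and 15 after thinning. The filter asks for 20 UMIs in the higher group, and thinning left 87 ligand-carrying and 240 Tnfaip6-only cells of 1000 UMIs each. A gene higher in the smaller group then needed a higher level to be measured, so the thinned numbers of the 2 directions are not on an equal footing. The cause of the changes was not tested.
Contractile and matrix genes led the higher ones. Tagln, a smooth muscle actin-binding protein, was at 684 CPM (601 to 775) against 152 CPM (128 to 180), a log2 ratio of 2.17 (1.86 to 2.48), and Acta2, smooth muscle actin, at 257 against 87.6 CPM (log2 1.55, 1.11 to 2.0). With Tpm2, they were the 3 of 13 measured contractile and cytoskeletal genes at least 2-fold higher. Of 9 mural markers, 8 were detected in the ligand-carrying cells, and the smooth muscle gene Myh11 was at 0. At least 3 UMIs of mural markers were held by 43.3% of ligand-carrying and 27.4% of Tnfaip6-only cells. Tnc, the matrix glycoprotein tenascin C, was at 112 against 17.3 CPM (log2 2.69), Timp1 at 684 against 192 CPM (log2 1.83) and the collagen gene Col8a1 at 352 against 107 CPM (log2 1.72). Serpine2 had a log2 ratio of 1.21. Nes (nestin) was at 321 against 130 CPM and the transcriptional regulator Id4 at 120 against 40 CPM. The named higher genes also held Plekhh2 (log2 3.18), Fam213a (1.73), Trim30a (2.06), Gprc5b (1.74), Hpcal1 (1.78) and Fkbp1a (1.01).

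Lower in the ligand-carrying cells were cartilage- and tendon-type genes, 6 of 9 measured (Chad, Cilp, Comp, Cytl1, Fmod and Thbs4), with a median of -1.23. They are of the list drawn up with these libraries known, so this is a description. Comp, cartilage oligomeric matrix protein, was at 159 against 428 CPM (log2 -1.43, -1.85 to -1.02), Ogn (osteoglycin) at 179 against 522 CPM (log2 -1.55) and Wif1 at 425 against 1231 CPM (log2 -1.54, -1.79 to -1.29). Chrdl1, an antagonist of bone morphogenetic proteins, had 2 UMIs against 65 (log2 -3.65, -6.73 to -1.74), and Ucma 3 against 48. Socs3, a feedback inhibitor of cytokine signalling, was at 61.4 against 190 CPM (log2 -1.63), and Htra3 and Igsf10 had log2 ratios of -1.31 and -1.66.
The leading genes of the whole chosen set were less unequal between these cells. Cxcl1 was at 2103 CPM in the ligand-carrying and 1726 CPM in the Tnfaip6-only cells (log2 0.29), against 607 CPM in other matrix cells. Mmp3 was at 748 and 1106 CPM (log2 -0.56), C4b at 229 and 367 CPM (log2 -0.68) and Gas6 at 679 and 1263 CPM (log2 -0.90). When Tnfaip6 was not counted in the choosing sum, which leaves the same 90 cells and puts all other matrix cells, the Tnfaip6-only cells included, in the comparison, Mmp3, C4a, C4b, Srpx, Gas6, Figf, Col14a1 and Kcne4 were under 2-fold. Against the 2445 other matrix cells alone, the 90 cells had log2 ratios of 1.23 for Mmp3, 1.03 for Col14a1, 0.95 for C4a, 0.92 for C4b and 0.57 for Gas6.
Beside these differences, haemoglobin genes with Alas2 summed to 7943 CPM in the ligand-carrying and 3608 CPM in the Tnfaip6-only cells, and 3 ligand-carrying cells had over 2% of their UMIs from haemoglobin. Leaving such cells out gave 95 higher and 81 lower genes, and all 25 named genes kept at least 2-fold. Macrophage markers summed to 254 and 30.3 CPM (8 detected in both of the 9 among the P30 gene symbols), and 1 ligand-carrying cell held at least 3 of their UMIs. All 37 UMIs of the chemokine Ccl8 in the ligand-carrying cells came from 1 cell. Mural markers summed to 1240 and 520 CPM, of which Tagln and Acta2 are part, and their part in the result was not tested further.

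**Figure D5:**
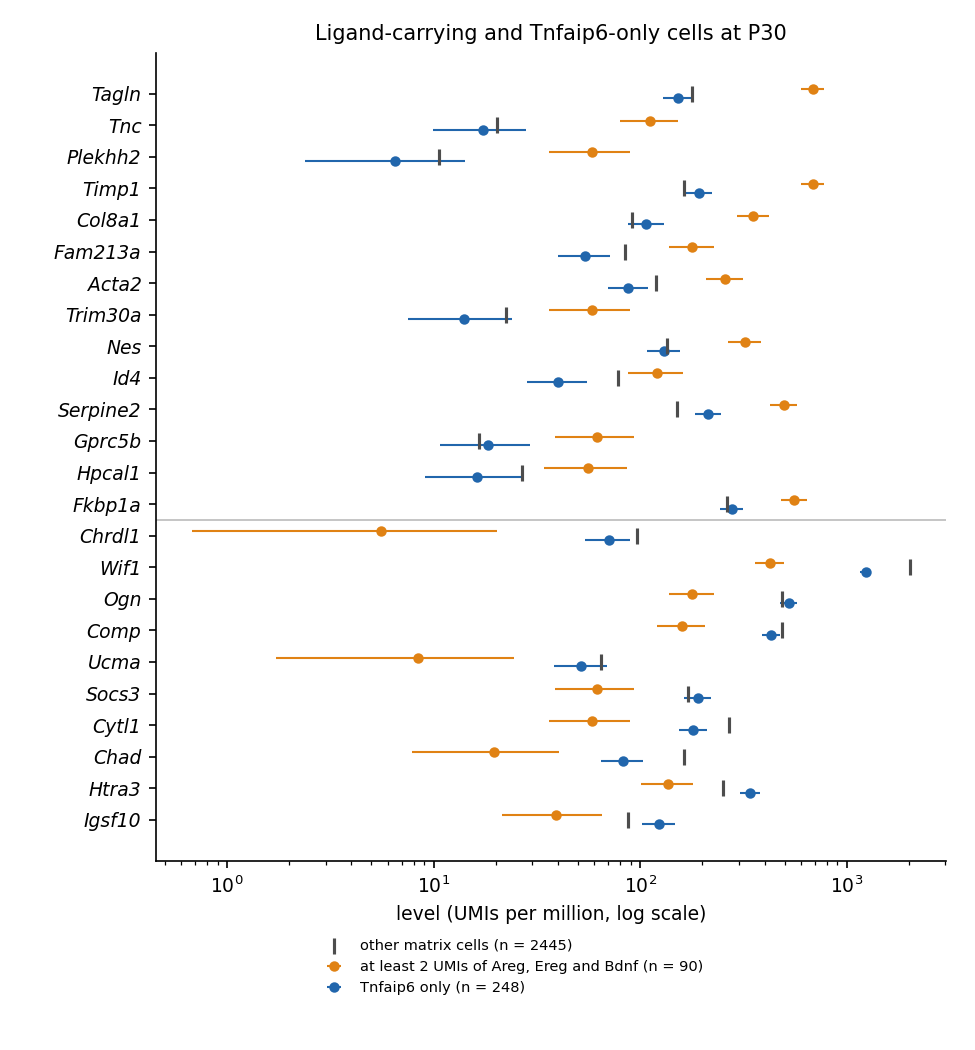
Levels in CPM (horizontal, log scale) of named genes in ligand-carrying cells (orange) and Tnfaip6-only cells (blue) at P30 with 95% Poisson bars, and in other matrix cells (grey tick). For Tagln and Timp1 the Tnfaip6-only cells lie close to the other matrix cells, at 152 and 192, and the ligand-carrying cells at 684 for both.

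At P7 the same rule, which was made on the P30 cells, found 55 of 722 matrix cells (7.62%, 5.79 to 9.80%), with a median of 4938 UMIs against 2145 in the other 667. Age and sequencing run cannot be told apart, and a smaller share at P7 is given without a test. The make-up of the chosen cells was similar in kind: Tnfaip6 was detected in 49, Ereg in 10, Areg in 6 and Bdnf in 6, and Tnfaip6 stood alone in 35. Levels in the chosen cells were 412 CPM for Tnfaip6, 118 CPM for Areg, 62.0 CPM for Ereg and 52.7 CPM for Bdnf. Areg was at 69.6 CPM in P7 cells with at least 2 UMIs of the other 3 genes and 13.5 CPM in cells with none (log2 2.37, 1.37 to 3.40), and Ereg gave 2.14 (0.79 to 3.49) and Bdnf 1.97 (0.63 to 3.32). Tnfaip6 gave 0.71, with an interval of -0.12 to 1.44 that includes equal levels. By single genes at P7, Bdnf had 0 UMIs in the 7 cells with Areg and 0 in the 17 with Ereg. Their upper interval bounds were 88.3 and 38.5 CPM, against 13.1 CPM without Areg and 13.5 CPM without Ereg. Ereg by Areg gave a log2 ratio of 3.94 (2.46 to 5.24), from 7 Ereg UMIs in the Areg cells. The intervals of Tnfaip6 by each of the other genes included equal levels.

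Cxcl1, Cxcl2, Ccl2, C4a and C4b stood at lower levels at P7 than at P30 in chosen and other cells alike. Of 3602 measured genes, 17 (0.472%) were 2-fold or more above the other cells in the P7 chosen cells and 53 (1.47%) lower. Cxcl1 was at 236 CPM (186 to 295) against 142 CPM (126 to 160), a log2 ratio of 0.73 (0.34 to 1.10), and Cxcl2 at 27.9 against 33.3 CPM. Ccl7 had 10 UMIs in each group (log2 2.53, 1.11 to 3.95). Mmp3 had 2 UMIs in the chosen cells and 20 in the others, and C4b 6 and 35. Of the other named genes, Kcne4 was at 112 against 52.6 CPM (log2 1.08, 0.49 to 1.65), and the intervals of Gas6, Srpx, Col14a1 and Figf included equal levels. None of the 10 named lower genes of P30 was 2-fold lower here, and among them only Col11a2 had an interval wholly below equal levels (log2 -0.47, -0.91 to -0.05). Chad was at 65.1 against 49.4 CPM and Wif1 at 772 against 595 CPM (log2 0.38, 0.17 to 0.57). Prg4 was lower at P7 as at P30, at 1783 against 3090 CPM (log2 -0.79) beside -0.86. Serpine2, Tnfaip3 and Col8a1 were at least 2-fold higher at both ages, with P7 log2 ratios of 1.42 (1.07 to 1.76), 1.17 (0.41 to 1.89) and 1.12 (0.51 to 1.71). Haemoglobin genes with Alas2 summed to 2176 CPM in the P7 chosen and 11236 CPM in the other cells, and melanocyte markers to 177 and 16.1 CPM, with 1 chosen cell holding at least 3 of their UMIs.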

How the data were processed

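Cells of aortic and mitral valves were profiled by Drop-seq in 1 P30 and 1 P7 library. The deposited tables hold UMI counts per gene and cell barcode, whole numbers without normalization, from the authors. Per the submitters' processing notes the build was mm10 and Bowtie2 2.2.7 was among the tools, and the counting program is not given in the sources used here. No barcode had under 500 detected genes. Counts were summed over the cells of a group and given per 1000000 UMIs, with exact Poisson, Clopper-Pearson and conditional binomial 95% intervals (Python 3.11.15, scipy 1.17.1), after a check on simulated data. A gene was measured with at least 50 CPM and 20 UMIs in the higher group, a gene at 0 was set at 3 counts, and a difference means 2-fold. The deposited normalized tables were not used. No doublet caller was run, and cells with 3 or more UMIs of endothelial, macrophage or lymphocyte markers were left out as an alternative. Thinning to 1000 UMIs left out 12 chosen and 137 other cells. Named genes were the 15 higher and 10 lower genes whose interval bound lay farthest from equal levels, carried by at least 10% of cells with no cell holding over 25% of UMIs. That choice passed over haemoglobin, mitochondrial and ribosomal protein genes and those without a proper name. Other genes are members of 36 lists or were chosen after their values were seen. The cells, lists and rules were chosen with earlier results of these data known. Positions are of GENCODE M21 (93.6% and 93.5% of P30 and P7 symbols matched), and the alternatives are described in the closing section. Some results are not reported here.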

Additional observations from a re-analysis of the deposited data

Results flagged for a closer look

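Areg and Ereg UMIs were also counted in cells that the comparisons do not use, those under the 1% matrix share. At P30 these 666 cells held 263 of the 472 Areg UMIs (55.7%) and 98 of the 297 Ereg UMIs (33.0%). At P7 they held 24 of 63 Areg UMIs and 13 of 40 Ereg UMIs. No control sample exists for these genes, and the values stand above the 3 counts that a count of 0 allows.

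The P30 Areg UMIs came from 48 of these cells, with a median of 4156 UMIs, and the most in 1 cell was 50. Of the 666 cells, 18 had over 20000 UMIs, with a maximum of 172266. Summed levels weigh such deep cells most, and their part in the values below was not tested. Against the 618 without Areg, Ereg was at 87.8 against 12.9 CPM and Pthlh (parathyroid hormone-like hormone) at 1163 against 180 CPM. The 10 endothelial markers summed to 2250 against 1713 CPM, of which Pecam1 gave 903 against 527 CPM and Cdh5 157 against 126 CPM. Ly6a was at 1862 against 232 CPM, and macrophage markers summed to 418 against 5439 CPM. At least 3 UMIs of endothelial markers were counted in 22 of the 48 cells, and in 200 of all 666 cells, the 48 included. The 48 cells were deeper, with a median of 4156 UMIs against 1968 UMIs in the 618 without Areg. A fixed number of UMIs is reached more easily in deep cells, and the part of depth in these counts was not tested. Bdnf and Tnfaip6 stood at 3.65 and 32.9 CPM in the Areg cells, against 82.4 and 835 CPM in the chosen matrix cells. These cells were grouped by a measured gene, so the values are a description.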

How the results depend on the processing

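No paired analysis was possible because each age has 1 library. None of the 25 named genes of the chosen cells, nor of the 25 of the ligand-carrying cells, changed direction under the alternatives run, but 28 of 400 and 18 of 175 values fell under 2-fold. The number of chosen cells was 247 with at least 3 choosing UMIs, 128 with at least 2 of the 4 genes, 90 without Tnfaip6 in the sum and 162 when cells were thinned to 1000 UMIs before the rule, 146 of them chosen before. The P7 number was 26 with at least 3 UMIs. Higher and lower genes numbered 70 and 36 with at least 3 UMIs, 75 and 50 with 2 genes, and 80 and 62 without Tnfaip6. Without a filter on low counts they numbered 1321 and 837. Thinning gave 40 lower genes. Between ligand-carrying and Tnfaip6-only cells, thinning gave 22 higher and 129 lower, with 1528 genes measured in place of 3344, and 1 ligand UMI or more gave 47 and 35. Those alternatives, and comparison cells with no choosing UMI (58 higher, 24 lower), were chosen after seeing the data. Median-of-ratios scaling left 37 higher and 19 lower genes, and genes near the limit, such as Serpine2, are close to 2-fold only. Thinning took Scn7a, Gas6 and Rspo3 under 2-fold, and weighting by depth Ccl2 and Cytl1. Beyond fewer genes or cells, the cause was not tested. Choosing by 2 UMIs limits the rule by depth: a shallow cell with these transcripts can be missed. With 1 library per age, no value has a check between animals.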
